A study of Mus musculus with 30 samples.

Results

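The circadian clock genes described here are Clock, Arntl, Per1, Per2, Per3, Cry1, Cry2, Nr1d1, Nr1d2 and Dbp, chosen by name and matched by Ensembl identifier to their symbols. All 10 were found among the 55335 gene rows, and all 10 passed the filter on low counts that left 19368 genes for testing. Ribosome-bound RNA had been pulled down through an HA-tagged ribosomal protein (RiboTag, RT) from nucleus accumbens punches of female mice. D1-Cre-RT mice carry the tag in medium spiny neurons (MSNs) of the D1 dopamine receptor class. A2A-Cre-RT mice, where the adenosine A2A receptor gene drives Cre, carry it in the other class, whose libraries are called D2 here. Mice of each genotype were Control or had undergone chronic witness defeat stress (CWDS), where a mouse watches another being defeated, and these were split by social interaction score into Resilient and Susceptible. Each of the 6 groups holds 5 libraries, 30 in all. A library pools 4 mice with similar scores, so it averages over animals. Punches were taken 24 h after that score was measured, and libraries were made from 10 ng of RNA. Mouse age and clock time of collection were not stated in the sources used here, so levels of these genes cannot be placed on a daily cycle.

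The circadian clock is a transcriptional feedback loop that runs in most cells of the body. CLOCK pairs with ARNTL (also called BMAL1) and switches on the Per and Cry genes through E-box elements, and the PER and CRY proteins return to the nucleus and repress that pair. In a linked loop, NR1D1 and NR1D2 (REV-ERB alpha and beta), nuclear receptors that are themselves targets of CLOCK and ARNTL, repress Arntl. DBP is an output transcription factor of the PAR bZIP family that binds D-box elements, among them those of Per genes. In the striatum, clock genes are known for their ties to dopamine signalling and reward.

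Of the promoters, 2 upstream stretches and 2 short contexts are shown, of the members the class results turn on and of those with an E-box. They are RefSeq sequence upstream of annotated start sites on GRCm38.p6, written along the gene's own strand, and capitals mark a match. Windows of 250 bases were available for 9 of the 10 genes. A D-box was searched as TTATGTAA or TTACGTAA, an E-box as CACGTG, a REV-ERB/ROR element as TAGGTCA or TGGGTCA and a cAMP response element as TGACGTCA, on both strands. No match shown overlaps another. Per3 and Dbp are given because they were the members whose mean difference between neuron classes passed the test in 37 of 37 alternative fits. The Per3 stretch is chr4:151044666-151044915 on the minus strand, and the Dbp stretch is chr7:45704997-45705087 on the plus strand. Each ends at the base before the first annotated exon.
Per3: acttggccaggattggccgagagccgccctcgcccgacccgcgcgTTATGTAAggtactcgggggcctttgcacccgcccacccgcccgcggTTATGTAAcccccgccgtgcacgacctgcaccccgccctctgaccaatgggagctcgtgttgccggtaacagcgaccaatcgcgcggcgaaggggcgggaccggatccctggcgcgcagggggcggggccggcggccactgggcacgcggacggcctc
Dbp: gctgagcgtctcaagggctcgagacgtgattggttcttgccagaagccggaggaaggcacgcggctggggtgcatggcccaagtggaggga
The Per3 stretch holds 2 D-boxes, whose 5′ ends lie 205 and 158 bases upstream of the start site. The full Dbp window holds none of the 4 motifs. E-boxes were found in 2 members, Per1 and Cry1, and they are shown with their flanks at chr11:69098771-69098800 (plus strand) and chr10:85185097-85185126 (minus strand).
Per1: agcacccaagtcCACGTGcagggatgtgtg
Cry1: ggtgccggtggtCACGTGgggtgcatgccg
Of 32851 windows of the same length, 6.02% hold the E-box, 0.931% a D-box, 5.38% a REV-ERB/ROR element and 1.55% the cAMP response element. No member window holds either of the last 2. A match is a string of letters and does not show binding.

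The genes lie apart in the genome, by GENCODE M21 on GRCm38. Clock is on chromosome 5 (76209868 to 76304792, minus strand), Arntl on chromosome 7 (113207465 to 113314126, plus) and Dbp on the same chromosome (45705088 to 45710203, plus). Per1 (11, 69095217 to 69109960, plus), Per2 (1, 91415982 to 91459324, minus) and Per3 (4, 151003652 to 151044665, minus) are on 3 chromosomes, as are Cry1 (10, 85131700 to 85185064, minus) and Cry2 (2, 92403646 to 92434043, minus). Nr1d1 (11, 98767932 to 98775333, minus) and Nr1d2 (14, 18204054 to 18239127, minus) are the REV-ERB genes. Counts are per gene over its exons. Exon overlap with a gene on the opposite strand touches 18.01% of the exon bases of Dbp (539 bases shared with Sphk2), 8.55% of those of Nr1d1 (263 bases, Thra) and 4.67% of those of Cry2 (295 bases, D930015M05Rik). As the strand setting of the counting is not given, reads from those bases cannot be assigned to one gene or the other.

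Gene counts per library ranged from 28996168 (D1 Susceptible replicate 1) to 65882152, and the fewest counts of any member in any library were 213, for Per3 in that shallowest library. One feature, Gm42418, took 54.9% of the counts there and at most 5.46% elsewhere. D2 Susceptible replicates 1 and 2 stand apart from the rest: they held 15822 and 16525 genes with a count against a median of 21135, and their summed CPM over 5 epidermal marker genes was 344 and 551 against at most 39.9 in every other library. Values without both are given beside the results that turn on them. The medium spiny neuron markers were present in every library. Of the class markers, 5 of 7 D1 markers were higher in D1 Control than in D2 Control and 4 of 4 tested D2 markers were lower. D2 Resilient replicate 5 held more of the D1 markers (1858 CPM summed) than any other D2 library, a level within the range of the D1 libraries (1736 to 2609 CPM). D2 Control replicate 5 came next among the D2 libraries, at 1236 CPM. The labels call the 5 libraries of a group biological replicates.

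Dbp had the highest level of the 10 genes for its length and Per3 the lowest. Level per length is CPM (counts per 1000000, on TMM-scaled library sizes) divided by the gene's exon length in kb, averaged over 30 libraries. Dbp stood at 59.1 CPM per kb, above all other members in 30 of 30 libraries, and in the 95.8th percentile of the genes tested. Nr1d1 (25.8), Nr1d2 (24.0) and Cry2 (23.4 CPM per kb) followed and were not separated by library: Nr1d1 was above Nr1d2 in 18 of 30 libraries, and Nr1d2 above Cry2 in 15. Cry2 exceeded Per1 (18.3 CPM per kb) in 30 libraries, Per1 exceeded Cry1 (13.4) in 29, and Cry1 exceeded Clock (6.17) in 30. Clock was above Per2 (4.92) in 26 libraries, Per2 above Arntl (3.42) in 30, and Arntl above Per3 (2.49 CPM per kb) in 28. Of the repressor genes, Nr1d1, Nr1d2, Cry1, Cry2 and Per1 thus lay above both activator genes, Clock and Arntl, whereas Per2 lay between them and Per3 below both. The scale takes no account of how many of a gene's exons are in use.

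**Figure D1:**
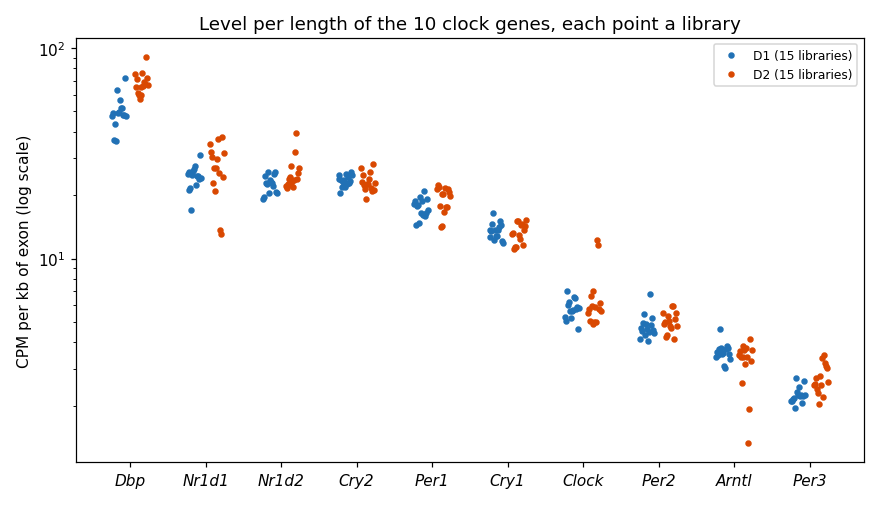
Level per length of each clock gene (CPM per kb of exon, log axis), ordered by mean. Each point is a library, 15 D1 and 15 D2. Dbp (mean 59.1) stands above the rest, and 2 D2 points each stand apart for Nr1d1, Clock and Arntl.

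The spread between libraries of a group also differed among members. It was smallest for Cry2, with a residual SD of 0.127 on the log2 scale (5.79th percentile of all genes tested), and for Cry1 (0.132). It was largest for Nr1d1 (0.349), Arntl (0.315) and Clock (0.280), all below the median over all genes of 0.382. In D2 Susceptible, Clock measured 167 and 159.5 CPM in replicates 1 and 2 and 79.0, 84.1 and 77.6 CPM in the others. Arntl went the other way, with 10.0 and 14.5 CPM against 31.4, 24.5 and 27.8 CPM. Nr1d1 was low in the same pair, at 41.9 and 40.4 CPM against 116.0, 75.1 and 97.4 CPM. Those 2 libraries thus hold the highest Clock and the lowest Arntl and Nr1d1 values of all 30. Transcript GC content is 40.93% for Clock and 41.84% for Nr1d2, both high in the pair, and 56.82% for Nr1d1, low in it. Arntl, also low there, has the next lowest GC content after Clock and Nr1d2 (47.72%). Dbp has the highest (61.57%) and held 205 and 201 CPM in the pair against 271, 215 and 201 CPM in the others. The part of GC content in these values was not tested.

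**Figure D2:**
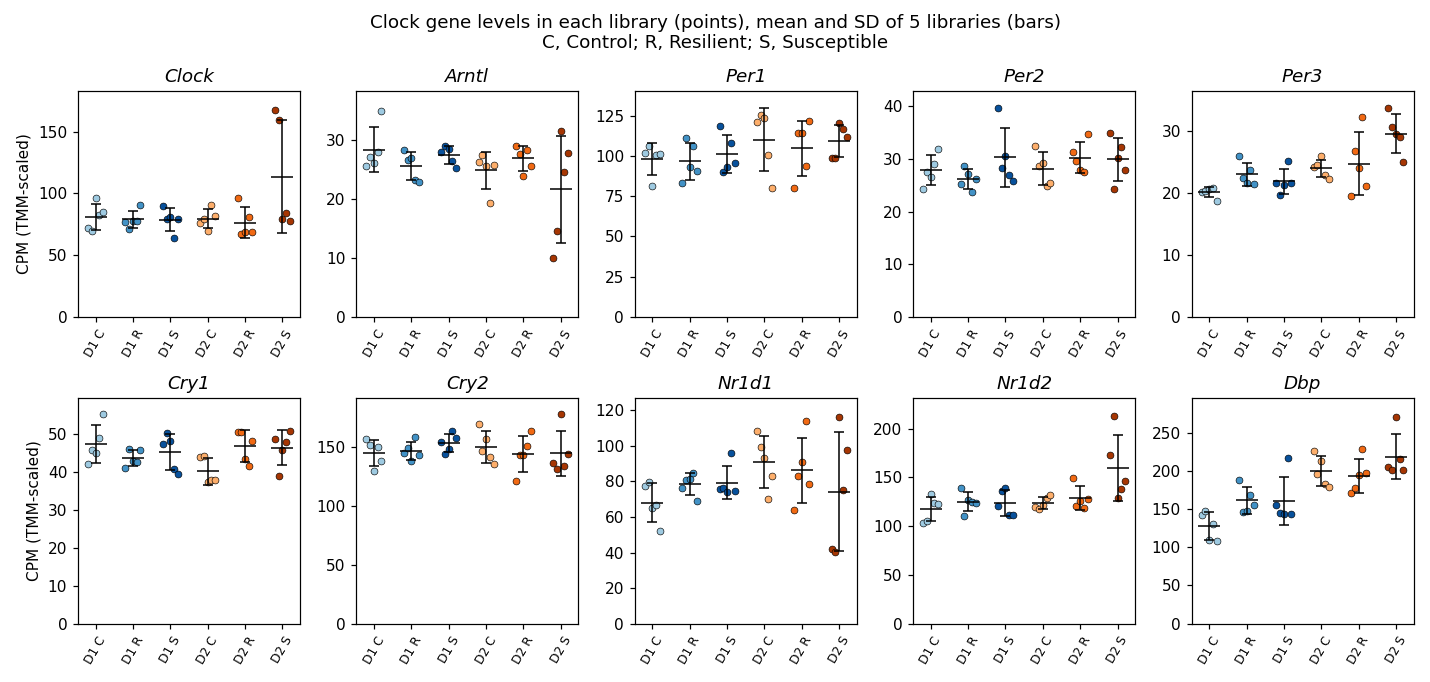
CPM of each clock gene in every library (points) by group, with the mean and SD of 5 libraries (bars); each panel starts at 0. Dbp is lower in all D1 Control points (at most 147 CPM) than in any D2 Control point (at least 179 CPM), and the D2 Susceptible points of Clock, Arntl and Nr1d1 split into 2 and 3.

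The 2 neuron classes were compared first, in each stress group and on the mean of the 3. Dbp, the output factor, was higher in D2 than in D1 neurons. Per3, a Per gene whose loss leaves the core rhythm largely intact in mice, was higher in D2 on the mean, and so, by a smaller margin, was Nr1d2. Differences are given as log2 of D1 over D2, so a negative value means higher in D2. By edgeR's quasi-likelihood test with Benjamini-Hochberg adjustment over all 19368 genes, 1 member of 10 passed 0.05 in Control (Dbp; 8.3% of all genes did), 0 in Resilient (6.65%), 4 in Susceptible (23.9%) and 3 on the mean of the 3 groups (29.3%). All calls were lower in D1. The share of all genes called lower was 4.8% in Control, 13.4% in Susceptible and 15.5% on the mean. In Resilient, 1 member had an unadjusted p under 0.05 (15.2% of all genes), and DESeq2 and voom called none there.

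Dbp carried the clearest class difference. The D1 Control libraries held 142, 147, 109, 130.2 and 108 CPM, and the D2 Control libraries 226, 195, 213, 183 and 179 CPM. The groups did not overlap, as in 11.7% of all genes. The means were 127 ± 18.2 and 199 ± 19.9 CPM (SD, n = 5 each), which is -0.65 on the log2 scale with an SE of 0.117 (edgeR, adjusted p 0.000366). In Resilient the values were 188, 146, 148, 169 and 155 CPM for D1 and 171, 178, 194, 229 and 197 CPM for D2. A single D1 library, replicate 1, lay within the D2 range, and the difference of -0.26 did not pass (adjusted p 0.239, unadjusted 0.0303). It was -0.31 to -0.18 over 17 alternative fits, leaving out D2 Resilient replicate 5 among them, and passed in 0. The Susceptible D1 libraries held 155, 145, 144, 216 and 143 CPM against 205, 201, 271, 215 and 201 CPM in D2, where D1 replicate 4 lay within the D2 range. That difference was -0.44 (SE 0.117, adjusted p 0.00653), and on the mean of the 3 groups it was -0.45 (95% interval -0.59 to -0.32, adjusted p 4.11e-06). Without D2 Susceptible replicates 1 and 2 the Susceptible difference was -0.49 (adjusted p 0.0132). With only the Susceptible libraries in the fit, neither Dbp (adjusted p 0.0834) nor Per3 (0.0611) passed there. Dbp stayed past the threshold in 16 of 16 alternative fits in Control and 37 of 37 on the mean.

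Per3 showed the same direction at a smaller size. In Control the D1 libraries held 20.2, 20.3, 20.6, 20.9 and 18.7 CPM and the D2 libraries 24.2, 24.4, 25.9, 23.0 and 22.2 CPM. The groups did not overlap, yet the difference of -0.25 missed the threshold (adjusted p 0.174 by edgeR). In Resilient the groups overlapped, at 21.4 to 26.0 CPM in D1 and 19.5 to 32.2 CPM in D2 (-0.10, adjusted p 0.832). In Susceptible they were 21.6, 19.7, 21.3, 25.2 and 21.6 CPM for D1 and 33.6, 30.7, 29.5, 29.0 and 25.0 CPM for D2. Here D1 replicate 4 alone exceeded the lowest D2 library. The Susceptible difference was -0.43 (SE 0.108, adjusted p 0.00441), and -0.32 (adjusted p 0.0743) without D2 Susceptible replicates 1 and 2. On the mean of the 3 groups Per3 was at -0.26 (SE 0.0620, adjusted p 0.00165), past the threshold in 37 of 37 alternative fits.

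The Susceptible differences of Nr1d2, the second REV-ERB, and Clock, an activator, rested on the pair of libraries that stand apart. Nr1d2 measured 173, 213, 129, 138 and 146 CPM in D2 Susceptible and 120.2, 136, 139.6, 112 and 111 CPM in D1 Susceptible, with its 2 highest values in replicates 1 and 2. The difference was -0.37 (adjusted p 0.0121), -0.22 (adjusted p 0.0979) without replicate 2 of D2 and -0.13 (adjusted p 0.428) without both. On the mean of the 3 groups Nr1d2 was at -0.16 (adjusted p 0.0470), and it passed in 5 of 37 alternative fits. It was at -0.10 (adjusted p 0.147) without D2 Susceptible replicate 2 and at -0.07 (adjusted p 0.299) without replicates 1 and 2. Clock in Susceptible was at -0.53 (SE 0.167, adjusted p 0.0207), and at -0.01 (adjusted p 0.975) without the pair. Leaving out D2 Susceptible replicate 1, D2 Susceptible replicate 2 or D1 Susceptible replicate 4 alone gave -0.33, -0.36 and -0.45 (adjusted p 0.135, 0.122 and 0.0700). Its Control and Resilient differences were 0.03 and 0.05.

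The other 6 members did not pass in any class comparison of the main model. Cry1, a repressor, came nearest, at 42.1, 45.7, 45.0, 49.0 and 55.2 CPM in D1 Control against 43.9, 44.1, 37.2, 37.8 and 37.7 CPM in D2 Control. The ranges overlap through D1 replicate 1. The difference was 0.24 (adjusted p 0.101), and 0.29 (adjusted p 0.0434) without D1 Control replicate 1. Nr1d1 in Control was at -0.41 (95% interval -0.83 to 0.00, adjusted p 0.252), with D1 values of 52.1 to 79.4 CPM and D2 values of 70.3 to 108 CPM. On the mean of the 3 groups Nr1d1 was at -0.15 (adjusted p 0.360), and at -0.26 (adjusted p 0.0203) without D2 Susceptible replicates 1 and 2. Arntl was at 0.15 on the mean, with an interval of -0.06 to 0.36 that includes 0, and at 0.05 (adjusted p 0.594) without that pair. In Susceptible, Arntl was at 0.34 (adjusted p 0.175), at 0.53 (adjusted p 0.0213) without D2 Susceptible replicate 3 and at -0.01 (adjusted p 0.988) without replicates 1 and 2. Per1 (-0.13, interval -0.27 to 0.01), Per2 (-0.07, -0.20 to 0.06), Cry1 (0.03, -0.07 to 0.14) and Cry2 (0.02, -0.08 to 0.12) also had intervals that include 0 on the mean. With voom, Per1 (-0.24, adjusted p 0.000933) and Nr1d1 (-0.33, adjusted p 0.000177) passed on the mean and Nr1d2 (-0.03, adjusted p 0.597) did not. The median over the 10 members on the mean was -0.14, beside 0.00 over all genes tested.

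**Figure D3:**
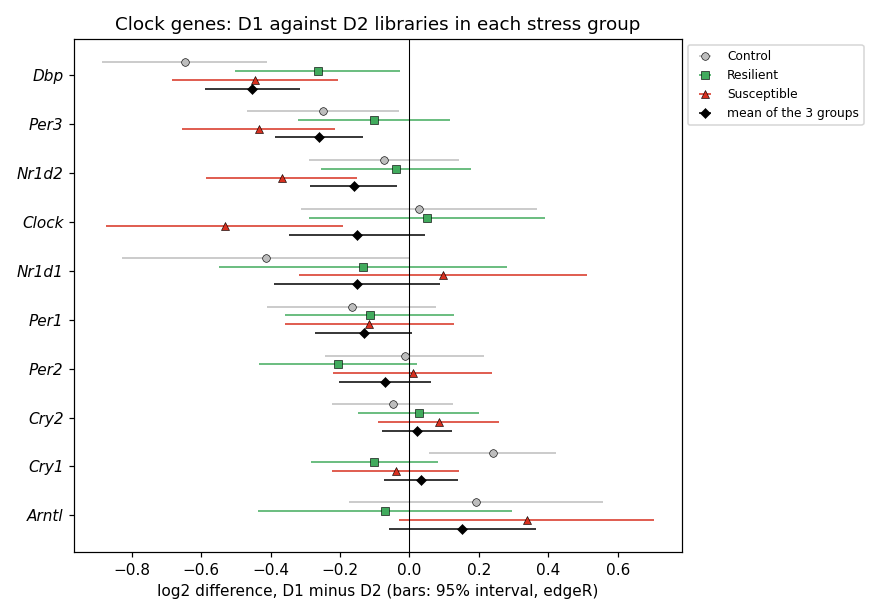
Difference between D1 and D2 libraries for each clock gene (log2, D1 minus D2; negative is higher in D2) in Control, Resilient and Susceptible and on the mean of the 3. Bars are 95% intervals from edgeR. The intervals of Dbp lie below 0 in all 3 groups, while those of Cry2 straddle 0 in all.

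Markers of cell types also differed between the classes. Of 8 markers of medium spiny neurons, 3, 2 and 4 passed as lower in D1 in Control, Resilient and Susceptible, and 1 in each as higher. The 8 include Penk and Tac1, which are also in the D2 and D1 class lists. On the mean of the 3 groups 5 of the 8 were lower and 1 higher (median log2 -0.31). The summed level of the 8 was 6813 to 9071 CPM over D1 libraries and 11196 to 19522 CPM over D2 libraries. The D2 class markers, Penk among them, summed to 1087 to 2707 CPM over D1 libraries and 4766 to 12628 CPM over D2 libraries. The part of Penk in the sum of the 8 was not tested. All 6 endothelial markers were lower in D1 in Control, Resilient and Susceptible (median log2 -3.36, -3.45 and -2.98), with a summed level of 13.5 to 38.2 CPM over D1 libraries and 62.2 to 333.2 CPM over D2 libraries. Of 4 mural markers, 3 passed as lower in D1 in each stress group (7.78 to 31.8 CPM in D1, 84.5 to 240.5 CPM in D2). Astrocyte markers passed as lower in D1 in 4, 6 and 5 of 7 (157 to 361 CPM in D1, 218 to 436 CPM in D2), and oligodendrocyte markers in 0, 3 and 5 of 7. Interneuron markers went the other way, with 4, 4 and 5 of 6 higher in D1. The defining endothelial markers were above 0 in every library, and Acta2, a mural marker, was at 0 in at least 1 library of 3 groups. These levels move with the class comparison of Dbp and Per3, and their part in it was not tested. In ribosome pulldowns a smaller share of one cell type and less RNA per cell cannot be told apart.

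Stress was compared next within each class, and no clock gene passed the threshold in any of the 6 comparisons. In D1 libraries, the edgeR count was 0 of 10 for Susceptible against Control (0% of all genes passed), Resilient against Control (0%) and Susceptible against Resilient (0%). Members with an unadjusted p under 0.05 numbered 1, 1 and 0 (2.4%, 2.6% and 3.49% of all genes). DESeq2 called none in D1, and voom called 1, Dbp in Resilient against Control. In D2 libraries the counts were 0 for Susceptible against Control (0.00516% of all genes), 0 for Resilient against Control (0%) and 0 for Susceptible against Resilient (0.0516%). Members with an unadjusted p under 0.05 numbered 4, 1 and 3 (15.7%, 4.2% and 19.1% of all genes), and the first and last were 1 and 0 without D2 Susceptible replicates 1 and 2. DESeq2 called Nr1d2 in D2 Susceptible against Control (adjusted p 0.0414) and Clock in D2 Susceptible against Resilient (adjusted p 0.0275), and voom called none in D2.

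In D1 neurons the gene with the smallest p was Dbp. From the Dbp values given above, the D1 mean was 127 ± 18.2 CPM in Control, 161 ± 17.6 in Resilient and 161 ± 31.5 in Susceptible (SD, n = 5 each). All 5 Resilient and all 5 Susceptible libraries were above the Control mean. The ranges overlap, because Control replicates 1 and 2 reached 142 and 147 CPM and the lowest stressed library held 143 CPM. The log2 change was 0.34 in Resilient (95% interval 0.10 to 0.58, unadjusted p 0.00639) and 0.33 in Susceptible (0.10 to 0.57, unadjusted p 0.00732), each with an adjusted p of 1 by edgeR. These 2 comparisons share the Control libraries. With voom the Resilient change was 0.40 (adjusted p 0.0170). Per3 did not overlap between D1 Resilient (at least 21.4 CPM) and D1 Control (at most 20.9 CPM), as in 1.54% of all genes, with a change of 0.19 (adjusted p 1). Markers of other cell types moved with these comparisons, none passing the test. All 7 astrocyte, 7 oligodendrocyte, 6 microglia, 6 endothelial and 4 mural markers were estimated below 0 in D1 Resilient against Control (median log2 -0.82, -0.52, -0.68, -0.40 and -0.53). The summed astrocyte level was 171 to 361 CPM in D1 Control and 157 to 179 CPM in D1 Resilient. The 361 CPM was in D1 Control replicate 1, and the next highest D1 Control library held 184 CPM. That replicate was also highest in D1 Control for oligodendrocyte (1044 CPM, next 621) and microglia markers (40.1, next 13.9). It was highest too for endothelial (30.9, next 19.4) and mural markers (26.7, next 13.6). In D1 Susceptible against Control, all 6 endothelial and 4 mural markers were above 0 (0.48 and 0.57), and the astrocyte median was -0.18. All 4 tested D2 class markers were also above 0 there (median log2 0.43) and in D1 Resilient against Control (0.11), none passing. Their summed level was 1302 to 2196 CPM in D1 Control (median 1338). It was 1296 to 2707 CPM in D1 Resilient (median 1512) and 1087 to 2696 CPM in D1 Susceptible (median 2310). The part of all these markers in the Dbp and Per3 values was not tested. Between D1 Susceptible and D1 Resilient, Dbp differed by -0.01 (-0.24 to 0.23).

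In D2 neurons, the estimates for Susceptible turned on 2 libraries. Against Control, Clock was at 0.51 (adjusted p 0.178), Nr1d2 at 0.37 (0.158), Per3 at 0.30 (0.193) and Cry1 at 0.21 (0.262). Without D2 Susceptible replicates 1 and 2 these were 0.01, 0.15, 0.21 and 0.25 (adjusted p 1, 0.993, 0.933 and 0.723). Arntl moved from -0.20 to 0.16 and Nr1d1 from -0.29 to 0.08 on leaving them out. Against Resilient, Clock was at 0.57 (adjusted p 0.0820), Nr1d2 at 0.31 (0.111) and Per3 at 0.26 (0.183), and without the pair they were at 0.07, 0.09 and 0.17 (adjusted p 1 each). Leaving out D2 Susceptible replicate 3 instead, 1 of the other 3, brought Nr1d2 and Clock past the threshold against Control (adjusted p 0.0363 and 0.0392) and against Resilient (0.0232 and 0.0142). Clock also passed against Resilient without replicate 4 or 5 (0.0400 and 0.0162). Epidermal markers moved with the same 2 libraries, as given above, and their part was not tested. Cry1 was the member whose D2 estimate kept its size, at 0.22 in Resilient (unadjusted p 0.0199) and 0.21 in Susceptible. The D2 Control libraries held 43.9, 44.1, 37.2, 37.8 and 37.7 CPM of Cry1, the Resilient ones 50.4, 50.4, 43.4, 41.5 and 48.2 CPM and the Susceptible ones 48.5, 39.0, 45.6, 47.9 and 50.8 CPM. Neither change passed after adjustment, and both share the Control libraries.

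**Figure D4:**
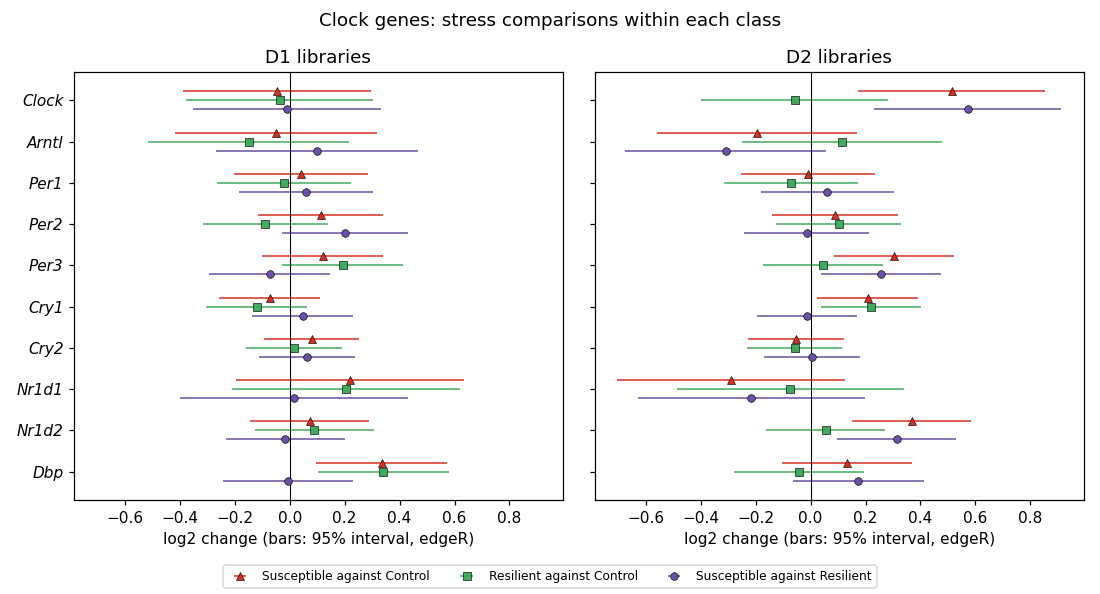
Change of each clock gene (log2) between stress groups in D1 (left) and D2 (right) libraries; bars are 95% intervals from edgeR. In D1 the Dbp intervals against Control lie above 0. In D2 the Susceptible intervals of Clock, Nr1d2 and Per3 do, as do those of Cry1 against Control. Those of Clock and Nr1d2 turn on D2 Susceptible replicates 1 and 2. Without that pair the Per3 estimates were also smaller, with no unadjusted p under 0.05 by edgeR. No value passed after adjustment over all genes.

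Of the members not yet described under stress, Per1 changed by -0.07 to 0.06 over the 6 comparisons, and Cry2 by -0.06 to 0.08. Per2 ranged from -0.09 to 0.20, the upper end in D1 Susceptible against Resilient (unadjusted p 0.0829). Per2 in D1 Susceptible was 39.7 CPM in replicate 1, the shallowest library, and 25.9 to 30.6 CPM in the others. Intervals for single changes of Per1 and Cry2 reached 0.32 at most in size. For Nr1d1 and Arntl the intervals were wider and reached -0.70 and -0.67 at their lowest.

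A difference in response between the classes was tested as the D1 change minus the D2 change. By edgeR, 0 of 10 members passed for Susceptible against Control (0% of all genes), Resilient against Control (0%) and Susceptible against Resilient (0%). Members with an unadjusted p under 0.05 numbered 2, 2 and 3 (7.79%, 4.99% and 12.4% of all genes), and DESeq2 and voom called none. Dbp changed by 0.38 more in D1 than in D2 in Resilient against Control (95% interval 0.05 to 0.72, adjusted p 0.937), and Cry1 by 0.34 less (adjusted p 0.853). The same tests compare the class difference between stress groups, so the larger Dbp difference in Control (-0.65) than in Resilient (-0.26) did not pass either. Clock was at -0.56 in Susceptible against Control (adjusted p 0.637), and at -0.05 (adjusted p 1.000) without D2 Susceptible replicates 1 and 2. Without that pair the unadjusted counts for the comparisons with Susceptible were 1 (against Control) and 0 (against Resilient).

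Of 45 other genes of the clock and its inputs and outputs, all were tested. In Control 5 of 45 passed between classes, 1 higher in D1 and 4 lower, where 8.3% of all genes passed. In Resilient 2 passed, both lower in D1 (6.65% of all genes), in Susceptible 15 (4 higher, 11 lower; 23.9%), and on the mean of the 3 groups 13 (4 higher, 9 lower; 29.3%). The median over the list on the mean was -0.04, beside 0.00 over all genes. Bhlhe41 (DEC2), a repressor of CLOCK and ARNTL activity, was lower in D1 in Control (-0.46, adjusted p 0.000148), in Resilient (-0.26, adjusted p 0.0339) and in Susceptible (-0.57, adjusted p 4.46e-06, and -0.44, adjusted p 0.000215, without D2 Susceptible replicates 1 and 2). Usp2, a deubiquitinase that acts on clock proteins, was lower in Control (-0.49, adjusted p 0.00204) and Susceptible (-0.69, adjusted p 2.1e-05, and -0.43, adjusted p 0.00107, without the same pair). The PAR bZIP relatives of Dbp also passed as lower in D1 on the mean, Hlf at -0.21 (adjusted p 0.000745) and Tef at -0.16 (adjusted p 0.00426). On that mean all 3 genes of the family were thus higher in D2. Of the single stress groups, Hlf and Tef passed in Susceptible alone, at -0.31 (adjusted p 0.00593) and -0.23 (adjusted p 0.0178). Without D2 Susceptible replicates 1 and 2 they were there at -0.36 (adjusted p 0.00395) and -0.15 (adjusted p 0.253). The glucocorticoid target Fkbp5 (-0.23, adjusted p 0.000231), Kdm5a (-0.54, adjusted p 0.00761), Timeless (-0.47, adjusted p 0.0230), Crtc2 (-0.25, adjusted p 0.0350) and Tspo (-2.44, adjusted p 1.52e-07) were the other genes lower in D1 on the mean. Those higher in D1 were Adcyap1r1, the receptor for PACAP (0.38, adjusted p 8.44e-06), the kinases Sik1 (0.27, adjusted p 0.0219) and Sik2 (0.46, adjusted p 0.0373), and Nampt, an enzyme of NAD synthesis (0.20, adjusted p 0.0300). Of these 13 calls on the mean, Kdm5a did not pass without D2 Susceptible replicates 1 and 2 (-0.27, adjusted p 0.0563).

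Tspo, Fkbp5 and Adcyap1r1 also passed in Control (-2.55, -0.33 and 0.35), and Tspo in Resilient (-2.31). Endothelial and mural markers had median log2 differences of -3.17 and -3.02 on the mean of the 3 groups. Their part in the Tspo values was not tested. Genes that passed in Susceptible and in no other class comparison were Rora (-0.70), Ncor1 (-1.09), Tsc22d3 (-0.52), Csnk1e (-0.41) and Por (0.74). Without D2 Susceptible replicates 1 and 2 the count over the 45 genes there was 7 instead of 15. Rora was then at -0.19, Ncor1 at -0.15, Tsc22d3 at -0.10, Csnk1e at -0.11 and Por at 0.35, and none of these 5 passed (adjusted p 0.319 to 0.726). The class difference was not shown to differ between stress groups for any of the 45. Under stress, 0 of 45 passed by edgeR in all 6 comparisons and in the 3 class differences. The counts at an unadjusted p under 0.05 were 4, 3 and 1 in D1 (Susceptible against Control, Resilient against Control, Susceptible against Resilient), beside 2.4%, 2.6% and 3.49% of all genes. In D2 they were 13, 0 and 12, beside 15.7%, 4.2% and 19.1% of all genes, and without D2 Susceptible replicates 1 and 2 the first and last were 2 and 3. DESeq2 called 1 in D2 Susceptible against Control and 7 in D2 Susceptible against Resilient, and voom called 1 in D1 Resilient against Control. The smallest p values in D1 were those of Bhlhe41 in Resilient against Control (0.23, unadjusted p 0.00512), Tef in Susceptible against Control (0.18, unadjusted p 0.0159) and Sik2 in Susceptible against Resilient (0.78, unadjusted p 0.0118). In D2 they were those of Bhlhe41 in Susceptible against Control (0.25, adjusted p 0.159, and 0.13 without that pair), Usp2 in Susceptible against Resilient (0.45, adjusted p 0.0558, and 0.21 without it) and Usp2 in Resilient against Control (-0.19, unadjusted p 0.0744).

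Within a group, libraries that were high in Dbp were also high in Nr1d1 but not in Nr1d2. After group means were removed from log2 CPM, 8 pairs of clock genes were correlated over the 15 libraries of each class, 16 relations in all, with 100000 permutations within groups. Nr1d1 and Dbp correlated at r = 0.74 in D1 (rho 0.73, permutation p 0.00942, adjusted 0.0377) and at r = 0.68 in D2 (rho 0.61, permutation p 0.00299, adjusted 0.0303). Leaving out the 2 libraries farthest in Nr1d1 gave r = 0.59 and 0.71. Per3 and Dbp correlated at r = 0.78 in D1 (rho 0.66, permutation p 0.00379, adjusted 0.0303), which fell to 0.50 without the 2 farthest libraries. In D2 the same pair gave r = 0.47 (adjusted 0.222). Nr1d2, outside the 8 pairs and so given without a test, ran opposite to Dbp (r = -0.39 in D1 and -0.60 in D2) and to Nr1d1 (-0.53 and -0.88). Without D2 Susceptible replicates 1 and 2 the D2 values were -0.73 and -0.76. Cry2, also outside the 8 pairs, ran with Dbp (r = 0.69 in D1 and 0.84 in D2) and opposite to Nr1d2 (-0.73 and -0.64). Clock, also outside them, ran with Nr1d2 (r = 0.60 in D1 and 0.85 in D2). It ran opposite to Dbp (-0.69 and -0.40) and Nr1d1 (-0.75 and -0.86). Without D2 Susceptible replicates 1 and 2 its D2 values were 0.62, -0.30 and -0.48. Transcript GC content is 61.57%, 56.82% and 55.61% for Dbp, Nr1d1 and Cry2, and 41.84% and 40.93% for Nr1d2 and Clock. Per1, at 59.39%, gave r = 0.27 and 0.47 with Dbp. The part of GC content in these relations was not tested. None of the rho values passed after adjustment over all 15 libraries a class, the smallest adjusted p being 0.0703. Libraries of one preparation share depth and tissue make-up, so such relations describe the libraries.

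The activator Arntl did not move with its targets in a common way. Arntl and Dbp gave r = -0.26 in D1 and 0.39 in D2 (adjusted 0.432 and 0.325 by permutation). Arntl and Nr1d1, which represses it, gave -0.49 in D1 and 0.85 in D2 (permutation p 0.00622, adjusted 0.0332). The D2 relation rests on the pair that stands apart: without D2 Susceptible replicates 1 and 2 it was 0.54 (adjusted 0.195). Clock and Arntl gave r = -0.84 in D2 (adjusted 0.0742) and -0.10 without the same pair, against 0.02 in D1. Arntl and Cry1 in D1 gave 0.62 (adjusted 0.0591). Per1 and Per2 gave 0.39 in each class (adjusted 0.271 and 0.250), but the D1 value was 0.07 without D1 Susceptible replicate 1, the shallowest library. Leaving out D2 Susceptible replicates 1 and 2 also changes the D2 terms of the adjustment. The relations of Dbp with Nr1d1 in both classes and with Per3 in D1 then had adjusted permutation p values of 0.0502 by r and 0.0469 by rho.

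**Figure D5:**
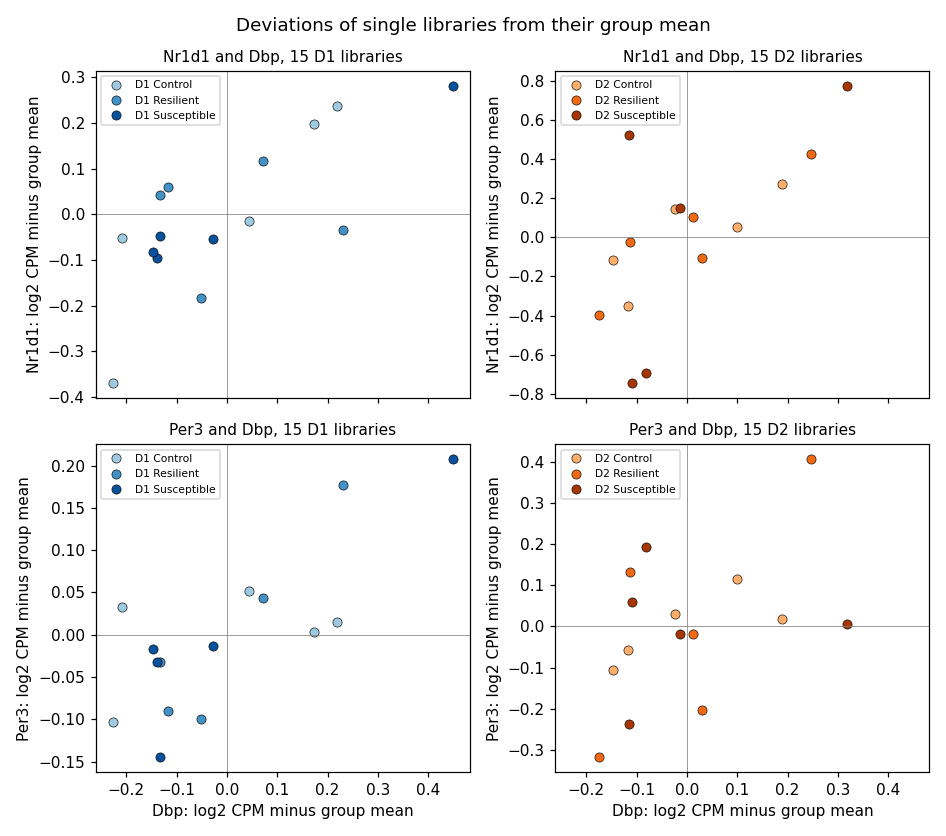
Deviation of each library from its group mean (log2 CPM) for Nr1d1 against Dbp (top) and Per3 against Dbp (bottom), in 15 D1 (left) and 15 D2 (right) libraries; axes differ between panels. Nr1d1 and Dbp deviate together in both classes (r = 0.74 and 0.68), and 2 D2 Susceptible libraries lie near -0.7 in Nr1d1.

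Genes whose libraries deviated most like those of a clock gene were found among 9560 genes of at least 3 in mean log2 CPM, over all 30 libraries with group means removed. For Dbp they were Ipo13 (r = 0.80), Hrh3 (0.79) and Lrrc10b (0.77), and the same genes gave 0.75 to 0.80 within D1 and 0.79 to 0.87 within D2. Among the members, Cry2 was at rank 16 by likeness to Dbp (r = 0.72), Nr1d1 at rank 149 (0.60) and Per3 at rank 350 (0.55). For Per1 they were Ripor1 (0.82), Erf (0.79) and Ptk7 (0.79). For Arntl they were Ap1g1 (0.95), Mtrex (0.95) and Polr2b (0.94), where the likeness came mainly from D2 (0.97 to 0.98, against 0.45 to 0.69 in D1), the class with the 2 libraries that stand apart.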

How the data were processed

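Per the labels' protocols, polyribosomes were pulled down with an anti-HA antibody and SMART-Seq v4 libraries were made. As deposited, each of 30 files gives unnormalized read counts for 55335 gene rows. The submitters' processing notes name HISAT2, HTSeq, GRCm38 and mm10. Their versions, the annotation and the strandedness were not stated in the sources used here. The 5 summary lines per library (10.1% to 53.3% of reads) stayed out of library sizes and tests. The deposited series table matched all 30 files. Groups came from sample titles.

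Genes were kept with filterByExpr (minimum count 10, minimum total 15), leaving 19368 and setting aside 35967. Counts were TMM-scaled and tested with edgeR 4.0.16 (quasi-likelihood, robust) in R 4.3.3, in 1 model of 6 groups and 13 comparisons, with Benjamini-Hochberg adjustment within each comparison across the 19368 genes and a threshold of 0.05. The fit was tested on simulated data. A count of 3 in a library equals 0.0430 to 0.304 CPM. Without molecular identifiers, such floors cover counting error only. Replicate pairs differed beyond sampling noise (chi-square per degree of freedom at least 13.7 over 60 pairs). For relations, log2 CPM had 1 as its prior count. Symbols and lengths come from GENCODE M21 (181 identifiers unmatched), promoters from RefSeq.

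The 10 genes and all lists were chosen with earlier results of these data known. Named were the 10 genes, those of 45 other clock genes at adjusted p under 0.05 or else at most 3 of smallest p per comparison, and the 3 genes most like Arntl, Per1 and Dbp. Alternatives were DESeq2 1.42.0 (its Wald test, or its size factors in edgeR), no filter, only the groups compared, a block for replicate number, limma 3.58.1 voom with quality weights, and fits without each library, without D2 Susceptible replicates 1 and 2, or without these, D1 Susceptible replicate 1 and D2 Resilient replicate 5. Of 5 D2 markers, 4 were analysed here. Figures used matplotlib 3.10.9.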

Additional observations from a re-analysis of the deposited data

Results flagged for a closer look

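In 7 of 60 groups of 5 libraries (10 genes in 6 groups), 1 library lay far from the other 4 on the log2 scale, with a gap to its neighbour over the group's range above Dixon's limit of 0.71, which chance exceeds in about 1 of 20 groups. The 60 groups share libraries and are not independent. The share over all genes was not computed, so no excess particular to clock genes can be read from this count. Dbp was high in D1 Susceptible replicate 4 (216 CPM against 155 in the next library, ratio 0.800) and in D2 Susceptible replicate 3 (271 against 215 CPM, ratio 0.768). The same D1 Susceptible replicate 4 was high in Nr1d1 (95.8 against 76.3 CPM, ratio 0.877), and the same D2 Susceptible replicate 3 was high in Cry2 (178 against 144 CPM, ratio 0.712). Arntl was high in D1 Control replicate 5 (34.8 against 27.9 CPM, ratio 0.717) and low in D2 Control replicate 4 (19.2 against 25.5 CPM, ratio 0.805). Per1 was low in D1 Control replicate 3 (81.0 against 100.2 CPM, ratio 0.797). D2 Susceptible replicates 1 and 2 do not appear here, because a pair of alike libraries leaves no gap between them.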

How the results depend on the processing

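Of the 8 member values that passed, none changed sign in any alternative fit. Of the 122 that did not pass, 51 changed sign and 12 passed in some fit. The number of clock genes called between classes in Control was 1, 3 with only the groups compared (Nr1d1, Per3, Dbp), 5 with voom (adding Cry1 and Per1) and 1 to 2 with single libraries left out. In Susceptible it was 4, 0 with only the groups compared, 2 with voom, 1 without D2 Susceptible replicates 1 and 2 and 1 without 4 libraries, and 2 to 5 with single libraries left out. On the mean of the 3 groups it was 3, 4 with voom (Nr1d1 and Per1 in, Nr1d2 out), 3 without D2 Susceptible replicates 1 and 2 (Nr1d1 in, Nr1d2 out) and 2 to 3 with single libraries left out; a fit of only the groups compared is the same fit there. Voom called 1 member in D1 Resilient against Control. DESeq2 called 1 in each of D2 Susceptible against Control and D2 Susceptible against Resilient, where leaving out single libraries gave 0 to 2 in each. The count of relations past 0.05 by r was 4, and 0 without D2 Susceptible replicates 1 and 2; by rho it was 0, and 3 without them. For the 45 other clock genes, 5 passed between classes in Control and 11 with voom, and 15 in Susceptible and 4 with only the groups compared. The causes of these shifts were not tested. Libraries with the same replicate number did not deviate together (correlations -0.143 to 0.0682, and 1 of 30 libraries correlated best with its own number). A replicate block took 1 member call away, Nr1d2 on the mean of the 3 groups (adjusted p 0.0686). The lowest count of any member in any library was 213, and the part of depth in these values was not tested.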
